A study of Mus musculus with 150 samples.

Results

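Cytosolic ribosomal protein genes encode the proteins of the 2 subunits of the ribosome that works in the cytosol. The genes were chosen by symbol: Rpl or Rps followed by a number and, where present, the letter a or x, plus Rplp0, Rplp1, Rplp2 and Rpsa, without S6 kinase genes and pseudogene symbols. This gave 64 of the 17097 genes that the array names with a probe set of their own, 41 of the large subunit and 23 of the small subunit. A probe set is the group of short probes on the array that reads 1 transcript, and each gene was followed by its probe set with the highest mean. All 64 genes passed the filter on dim signals, which left 15695 genes to test. The symbols Rpl5 and Rps3 are listed only in probe sets that name several genes and were not followed.

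Ribosomal proteins are made in every cell, and each ribosome holds 1 copy of nearly all of them. Their messenger RNAs begin with a run of pyrimidines (C and T in the gene), the terminal oligopyrimidine motif, through which the growth pathway mTORC1 and the RNA-binding protein Larp1 control translation. Because their messenger RNAs are abundant and steady, genes such as Rplp0 and Rpl13a are widely used as references in expression work.

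Whole lungs came from 150 male adult mice, 1 array per mouse, that breathed air or styrene vapour at 120 ppm for 26, 52, 78 or 104 weeks, 6 hours a day and 5 days a week. C57Bl/6 mice were wild type (WT, 31 mice), CYP2F2(-/-) knock-out (KO, 39 mice, which lack a lung cytochrome P450 that oxidises styrene) or CYP2F2(-/-),2F1,SA13,2B6 transgenic (TG, 38 mice, which lack the mouse gene and carry the named P450 genes), and 42 mice were CD-1, an outbred stock. What promoter drives the transgene was not stated in the labels. In air, the groups held 5, 2 and 4 WT mice at 52, 78 and 104 weeks, 5, 5, 4 and 6 KO mice at 26, 52, 78 and 104 weeks, 4, 5, 5 and 5 TG mice at those weeks, and 5, 4, 5 and 7 CD-1 mice. In styrene, they held 5, 5, 5 and 5 WT mice, 4, 5, 5 and 5 KO mice, 5, 5, 3 and 6 TG mice, and 5, 3, 3 and 10 CD-1 mice. No group of WT mice in air at 26 weeks was analysed here. Whole lung mixes many cell types, so a lower share of cells of a type and less of a messenger RNA per cell cannot be told apart.

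The probe set of Cyp2f2 read 12.95 to 13.53 (log2 intensity) in WT and 12.07 to 13.54 in CD-1 mice. It read 11.69 to 12.55 in KO and 11.80 to 12.40 in TG mice, so KO and TG arrays lay below every WT array, though not near 0, and where the probes lie relative to the deletion is not given. Over the groups, mean levels of marker lists were 10.87 to 11.74 for alveolar type 2 cells, 10.63 to 11.44 for alveolar type 1 cells and 10.70 to 11.65 for club cells, the cell types of lung epithelium. The labels name wells, and plates were inferred from wells that repeat. This gave 4 plates, with 4 arrays open between plates 3 and 4. At 104 weeks the air arrays lay on plate 3 and the styrene arrays on plate 4, apart from those 4, so at that week styrene and plate cannot be told apart for most arrays. On plate 1 the 26-week arrays lay in wells A02 to D01, the 52-week arrays in D02 to G03 and the 78-week arrays in G04 to H11, so week and well position moved together. Of the mice of 104 weeks, 10 carry a tumour note, which marks the animal and not the tissue assayed.

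The promoter sequences show what the genes share beyond their names. RefSeq promoters on GRCm38.p6, from 250 bases before to 50 after an annotated start, were found for 50 of the 64 genes, with 59 promoters in all. Within 50 bases on either side of the start, 49 of the 59 promoters (83.1%) held a run of at least 8 letters that were all C or T, against 35.7% of all 32851 promoters. The median longest run was 11 bases in these promoters and 7 over all of them. The ETS-type motif CCGGAAG, on either strand, was in 39% of these promoters and 8.86% of all, and the YY1-type motif AAGATGG in 16.9% and 6.34%. The windows below show the longest run in capitals for genes whose levels are described further on: the 5 that were called between 26 and 52 weeks at both doses, then 3 that were lower in styrene at 104 weeks. Each window is 30 bases, 5′ to 3′ on the gene's strand.
Rplp2, chr7:141447636-141447665, + strand: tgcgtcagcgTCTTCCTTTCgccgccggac
Rpl13a, chr7:45128722-45128751, - strand: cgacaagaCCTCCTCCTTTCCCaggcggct
Rpl39, chrX:37085173-37085202, - strand: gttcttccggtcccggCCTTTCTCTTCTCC
Rps25, chr9:44407684-44407713, + strand: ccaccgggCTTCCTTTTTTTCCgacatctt
Rps16, chr7:28350632-28350661, + strand: aattcacacgTCCCCTCTCaggcttcgacg
Rpl4, chr9:64173406-64173435, + strand: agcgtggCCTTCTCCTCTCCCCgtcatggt
Rpl23, chr11:97782404-97782433, - strand: gagtgggcggggCCTCCCgttcatatccca
Rps24, chr14:24490698-24490727, + strand: ttggtcggcagtgagcggTCCTCTTTTCCT
The run of Rpl23 was 6 bases and that of Rpl4 15 bases. The run of Rplp2, the only gene of these called higher at 52 weeks, was 10 bases, within the range of the 4 called lower. The runs of Rpl39 and Rps24 end at the last base searched and may be longer than shown. The first base of the run lay before the annotated start in Rps16 (-47), Rps25 (-22) and Rplp2 (-5). It lay after it in Rpl13a (3), Rpl23 (19), Rpl4 (27), Rpl39 (37) and Rps24 (39). The capitals therefore need not be the terminal oligopyrimidine motif. A match is a description of letters in a window, and annotated starts can differ from the start used in lung.

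The genes were bright and steady. Mean log2 intensities of 62 genes lay between 11.31 (Rpl22) and 13.30 (Rps29), and 2 probe sets lay apart. That of Rpl14 averaged 6.54, and that of Rps15a averaged 3.23, close to the filter level of 2.99 to 3.19, so differences of Rps15a are near background. The standard deviation (SD) between mice of a group was 0.0794 at the median gene. It was 0.213 over all genes tested, 0.127 over 189 other genes at least as bright, and 0.169 over 73 mitochondrial ribosomal proteins, which serve the separate ribosome of mitochondria. The steadiest gene was Rplp1 (SD 0.0453), an acidic protein of the stalk that recruits elongation factors, and the least steady was Rpl14 (SD 0.348).

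Over the 31 groups, the mean of each array's median over the 64 genes ran from 12.40 in WT mice after 52 weeks of styrene to 12.51 in KO mice after 26 weeks of air. Single arrays ran from 12.34 to 12.67. The group means of a gene spanned 0.283 at the median gene and 0.784 over all genes tested. On the log2 scale, 0.1 is a change of 7.2 percent, so most differences below are small. How far the top of the scale compresses differences of such bright probe sets was not tested.

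**Figure D1:**
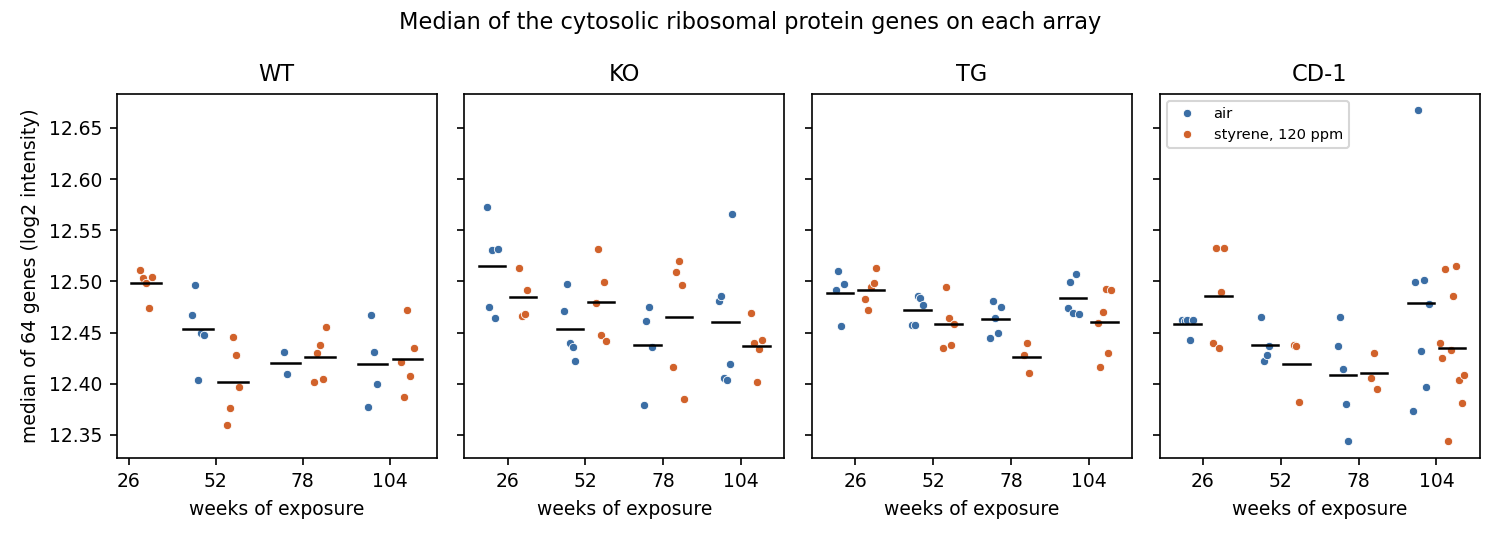
Median log2 intensity of the 64 genes on each array (points), by strain, week and dose, with group means as black bars. Most groups overlap, group means lie between 12.40 and 12.51, and the array at 12.67 is a CD-1 mouse in air at 104 weeks.

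Styrene against air was compared first within each strain and week, to ask whether inhaled styrene moved ribosomal protein messages. Up to 78 weeks at most 1 gene passed the adjusted test in any of the 11 comparisons. No gene of the 64 was called by limma (adjusted p under 0.05 over all genes tested) in WT at 52 and 78 weeks, KO at 26, 52 and 78 weeks, TG at 26 and 52 weeks, or CD-1 at 26, 52 and 78 weeks. The share of all genes called was 0.401% and 0.00637% in these WT comparisons, 0, 0.0127% and 0 in KO, 0 and 0.0127% in TG, and 0.65%, 0.0701% and 0.121% in CD-1. At an unadjusted p under 0.05 the genes numbered 17 in WT at 52 weeks, against 1657 of all 15695 genes. They numbered 3 each in TG at 52 weeks (1925 of all) and CD-1 at 52 and 78 weeks (792 and 1524). There were 2 each in KO at 52 weeks (767) and CD-1 at 26 weeks (1125), and 0 in the other 4. Those 4 gave 453 of all genes in WT at 78 weeks, 363 and 553 in KO at 26 and 78 weeks and 366 in TG at 26 weeks.

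In WT at 52 weeks, 54 of the 64 differences were negative, with a median of -0.07 against -0.03 over all genes. The lowest 2 were Rpl7 (-0.25 ± 0.12, standard error (SE), adjusted p = 0.447, limma) and Rpl36a (-0.21 ± 0.06 SE, adjusted p = 0.103). Rps2, a small-subunit protein near the messenger RNA entry, was the highest at 0.11 ± 0.06 (SE, adjusted p = 0.56).

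The gene called was Rpl23 in TG mice at 78 weeks, where 1.56% of the 64 genes were called, against 0.191% of all (0.115% higher and 0.0765% lower). At an unadjusted p under 0.05, 18 of the 64 genes passed there, against 3279 of all 15695. Rpl23 is a large-subunit protein that also binds the p53 regulator Mdm2. Its log2 intensities were 12.65, 12.51, 12.54, 12.58 and 12.59 in air and 12.43, 11.70 and 12.17 in styrene. The groups did not overlap, and the second styrene array lay far below the other 2. The difference was -0.42 ± 0.10 (SE, adjusted p = 0.048, limma).

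The same array was also the lowest for Rpl7, a large-subunit protein, and Rpl4, which lines the exit tunnel of the growing peptide. Rpl7 read 11.85, 10.59 and 11.83 in styrene against 12.18 to 12.36 in air. Rpl4 read 12.16, 10.87 and 11.93 against 12.13 to 12.38. Their differences of -0.66 ± 0.19 and -0.48 ± 0.15 (SE) were not called (adjusted p = 0.093 and 0.121, limma). Without the second styrene array, the difference of Rpl23 was -0.22 (adjusted p = 0.993). The count was 14 and 7 without the first or the third styrene array, 0 without air arrays 1, 3, 4 or 5, and 25 without the plate term, since these styrene arrays lay on plate 2.

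Averaged over the weeks up to 78, styrene moved none of the 64 genes past the threshold in any strain by limma, against 0.0382% of all genes in WT, 0.835% in CD-1 and 0 in KO and TG. At an unadjusted p under 0.05 the genes numbered 8 in WT, 1 in KO, 16 in TG and 5 in CD-1. Of all 15695 genes, 681, 946, 2104 and 1910 passed at that threshold. Without the first TG styrene array of 78 weeks the TG count was 9, without the third 2, and 12 without the plate term. Rpl14, a large-subunit protein, had the highest difference in CD-1 mice, 0.39 ± 0.14 (SE, adjusted p = 0.219). At 26 weeks it read 6.38, 6.47, 6.49, 6.61 and 6.68 in CD-1 air and 7.62, 7.79, 6.49, 6.54 and 6.74 in styrene, so 2 of 5 styrene mice were far above and the other 3 among the controls. At 52 weeks CD-1 mice read 6.41, 7.36, 6.21 and 6.19 in air and 7.41, 6.63 and 7.44 in styrene.

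The difference in styrene effect between strains was tested directly. It called 0 of the 64 genes by limma for WT against KO (0.0892% of all genes called), CD-1 against WT (0.0701%) and TG against KO (0 of all genes). At an unadjusted p under 0.05 the genes numbered 2, 1 and 9, against 880, 1311 and 646 of all 15695.

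The clearest movement was with time, between 26 and 52 weeks of exposure. Averaged over the 4 strains in styrene, 34 of the 64 genes fell and 1 rose, and 58 differences were negative. The share called was 54.7%, against 27.6% of all genes, of which 10.5% were higher and 17.1% lower. The differences themselves were smaller, with a median size, sign left out, of 0.068 in the 64 genes and 0.117 over all genes. The 64 genes vary less within groups (median SD 0.0794 against 0.213), so smaller differences can pass the test. The median gene was lower by 4.51 percent (-0.07 on the log2 scale), and the median of all genes was -0.03. Both subunits took part, with 20 of 41 large-subunit and 14 of 23 small-subunit genes called lower. In air, averaged over KO, TG and CD-1, 60 differences were negative, and 4 genes fell and 1 rose, 7.81% of the 64 against 2.39% of all genes (1.13% higher and 1.26% lower). The difference between the doses in this change, tested over the 3 strains that have both, called none of the 64 (0.0127% of all genes, limma). At an unadjusted p under 0.05 it also called none, against 800 of all 15695 genes. That test was added after the values were seen.

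The 4 genes that fell in air were among the 34 that fell in styrene, 100% of the one list and 11.8% of the other, and Rplp2 rose at both doses. The doses share no arrays, but both lie mostly on plate 1, where week and well row coincide. There, week and well position cannot be told apart.

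Of the 64 differences, 6 were positive in styrene and 4 in air. Rplp2, the other acidic stalk protein beside Rplp1, was the only gene of the 64 called higher at either dose. In WT styrene mice it read 12.33, 12.52, 12.50, 12.55 and 12.33 at 26 weeks and 12.64, 12.67, 12.70, 12.71 and 12.68 at 52 weeks. In CD-1 styrene mice it read 12.44, 12.53, 12.39, 12.47 and 12.49, then 12.64, 12.61 and 12.56. In both strains every 52-week mouse was above every 26-week mouse, while the KO ranges (12.30 to 12.55, then 12.53 to 12.63) and the TG ranges (12.43 to 12.63, then 12.55 to 12.67) overlapped. The change over 4 strains was 0.14 ± 0.03 (SE, 10.3 percent, adjusted p = 2.47e-05, limma), and in air 0.13 ± 0.03 (SE, adjusted p = 0.0103). It was positive in all 7 series of strain and dose. With every array centred on its own median it was no longer called in air (0.09, adjusted p = 0.125).

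Rpl13a, a large-subunit protein that is released from the ribosome in interferon-treated monocytes, fell at both doses. In WT styrene mice it read 12.66, 12.70, 12.68, 12.55 and 12.76 at 26 weeks and 12.44, 12.41, 12.59, 12.50 and 12.50 at 52 weeks. In CD-1 air mice it read 12.65, 12.55, 12.63, 12.68 and 12.76, then 12.54, 12.41, 12.48 and 12.48. The WT mice overlapped by 1 array and the CD-1 mice did not overlap. The changes were -0.12 ± 0.03 in styrene (SE, adjusted p = 0.000263) and -0.13 ± 0.03 in air (SE, adjusted p = 0.011, limma).

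Rpl39, the small protein that lines the exit tunnel, fell by 0.14 ± 0.03 on the log2 scale in styrene (SE, 9.46 percent, adjusted p = 0.000109, limma). Its values ran from 12.84 to 12.99 at 26 weeks and 12.64 to 12.83 at 52 weeks in WT, and from 12.85 to 13.01 and 12.68 to 12.83 in KO. These groups did not overlap, nor did CD-1 (12.90 to 13.00, then 12.76 to 12.86), while TG mice did (12.84 to 13.03, then 12.61 to 13.01). In air it fell by 0.11 ± 0.03 (SE, adjusted p = 0.0457), and that call was lost in 18 of 28 fits that left out 1 array.

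Rps25, a small-subunit protein needed for some internal ribosome entry sites, changed by -0.13 ± 0.03 in styrene and -0.11 ± 0.03 in air (SE, adjusted p = 0.000238 and 0.0421). Rps16, a small-subunit protein at the decoding site, changed by -0.06 ± 0.02 and -0.09 ± 0.02 (SE, adjusted p = 0.0362 and 0.0239). The air call of Rps25 was lost in 19 of 28 fits that left out 1 array, that of Rps16 in 2, and the styrene call of Rps16 in 11 of 37.

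**Figure D2:**
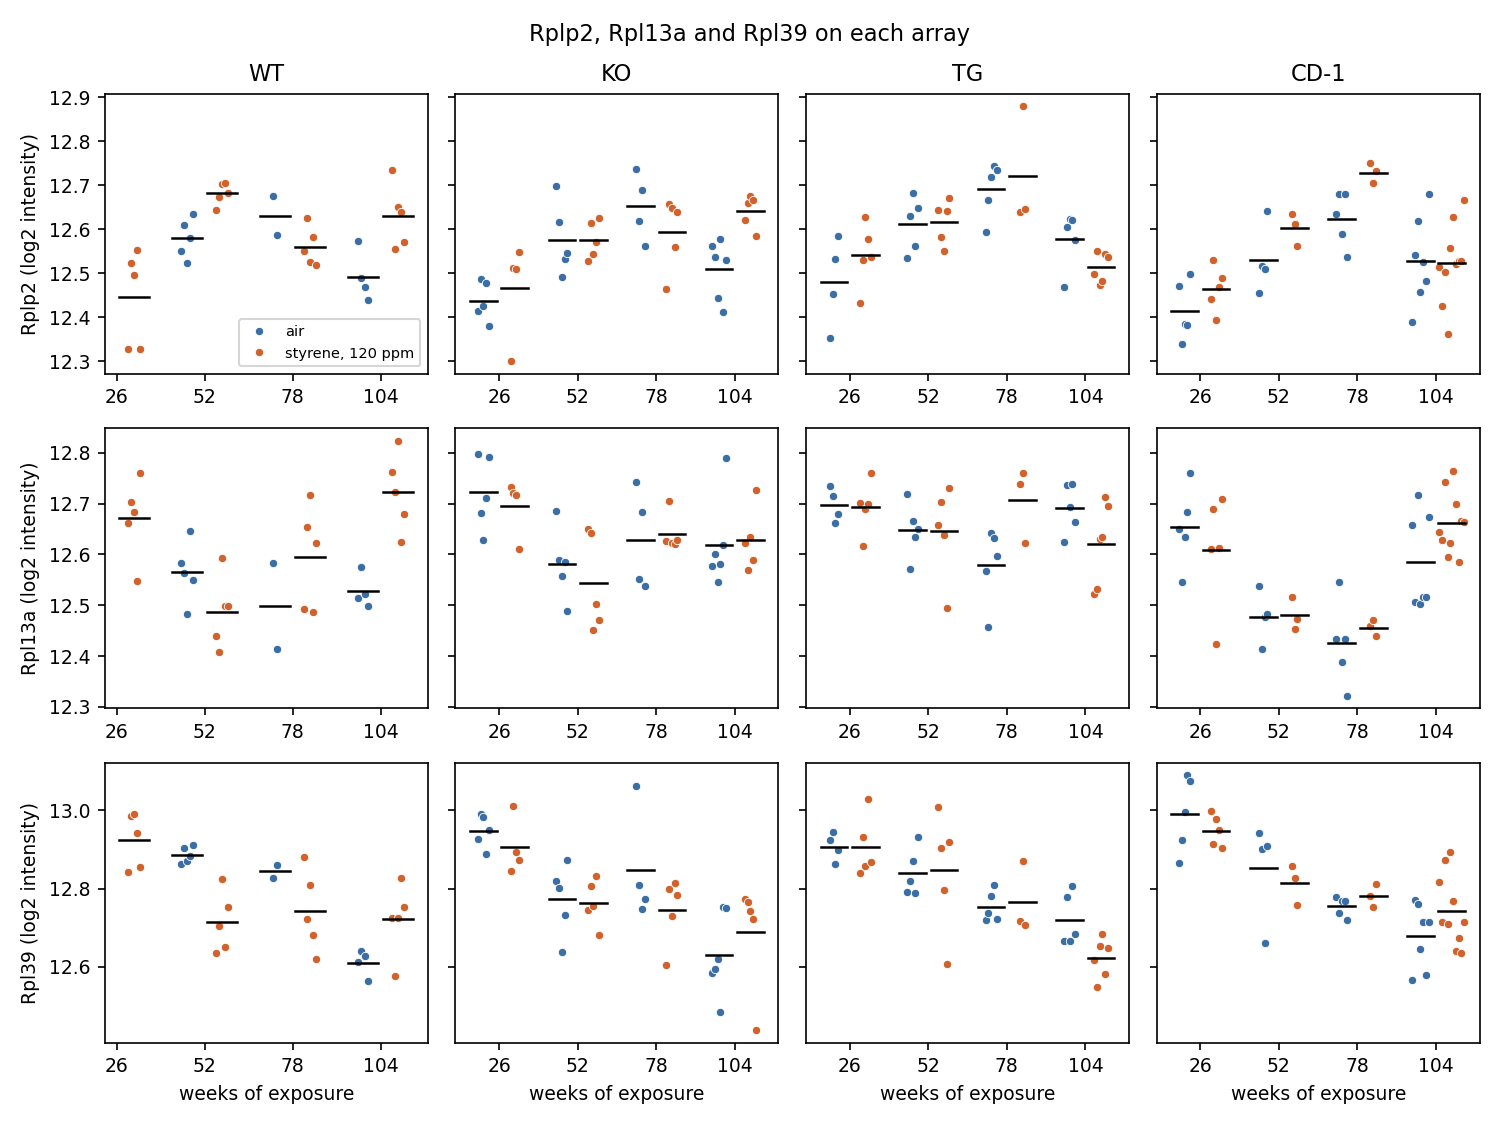
Log2 intensity of Rplp2, Rpl13a and Rpl39 on each array (points), by strain, week and dose, with group means as black bars. In every strain and dose measured at both weeks, the mean of Rplp2 is higher at 52 than at 26 weeks and the means of Rpl13a and Rpl39 are lower.

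The other genes with the most negative styrene differences were Rpl7 (-0.17), Rpl21 (-0.14), Rpl29 (-0.14), Rpl22 (-0.13), Rpl34 (-0.13), Rpl27a (-0.13) and Rps4x (-0.12). The call of Rpl7 was lost in 10 of 37 fits that left out 1 array. Rpl22, a large-subunit protein required in developing T cells, was lower in all 7 series of strain and dose. Over all 64 genes, 27 were lower in all 7 series and 16 in 6 of 7. This count was not made over all genes tested, of which 43% had a positive mean difference in styrene and 49.2% in air. The series also share the layout of plate 1, where week and well position moved together. Taken by strain in styrene, 13 genes fell and 1 rose in WT (9.98% of all genes called, 3% higher and 6.98% lower), and 1 fell in CD-1 (1.71% of all, 0.618% higher and 1.1% lower). In KO and TG none was called by limma (0.0127% and 1.8% of all genes). At an unadjusted p under 0.05 there were 5 genes in each, against 697 and 2725 of all 15695. Whether the strains differ in this change was not tested. In WT the lowest was Rpl27, which read 11.88, 11.79, 11.92, 11.67 and 11.89, then 11.51, 11.46, 11.66, 11.62 and 11.53 (-0.28 ± 0.05 SE, adjusted p = 0.000375). The Rpl27 groups did not overlap.

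Of the genes often used as references, Rpl13a was called at both doses and Rplp0 and Rps6 at neither, and whether they differ from each other was not tested. Rplp0 changed by -0.06 in styrene (adjusted p = 0.068) and by -0.04 in air (adjusted p = 0.601). Rps6, the substrate of S6 kinases, changed by -0.03 and -0.02 (adjusted p = 0.407 and 0.798, limma).

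**Figure D3:**
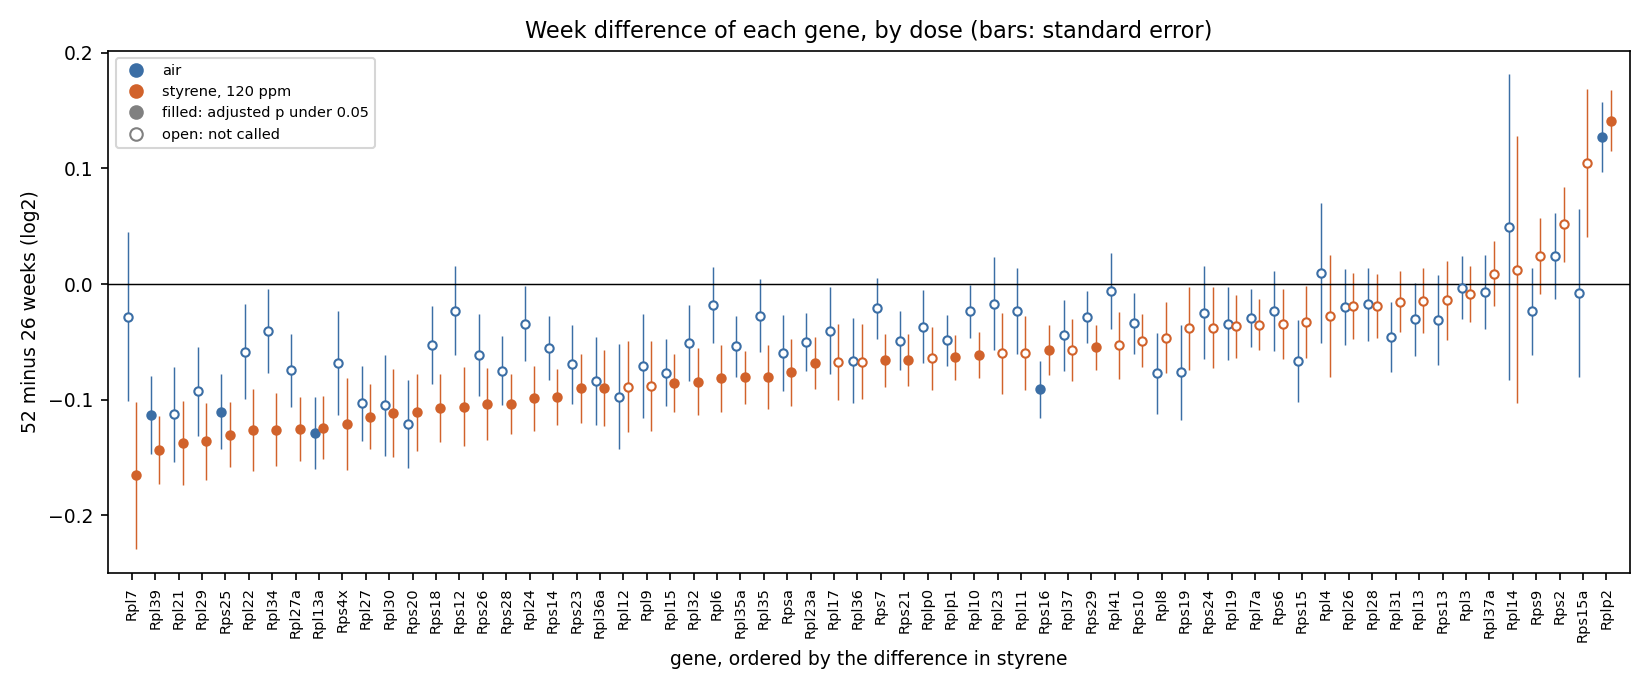
Difference of 52 minus 26 weeks (log2, vertical axis) for each of the 64 genes, ordered by the styrene difference, with standard errors. Filled points passed an adjusted p of 0.05: 35 in styrene and 5 in air, and Rplp2 is the only filled gene above 0.

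Other genes of the translation machinery gave the following counts for the same styrene comparison, from lists chosen with earlier results in view. Of all genes 27.6% were called in it, 10.5% higher and 17.1% lower. Of the mitochondrial ribosomal proteins, 51 of 73 fell and none rose, with a median of -0.19. Of 34 ribosome biogenesis factors, which assemble the subunits in the nucleolus, 12 fell and 2 rose (median -0.10). Ebna1bp2 changed by -0.32 and Mrto4 by -0.26. Of 8 paralogs and ubiquitin fusions of ribosomal proteins, 4 fell, among them Rps27l (-0.16) and Rpl22l1 (-0.20). Of 19 initiation factors 6 fell and 3 rose, with Eif3l at -0.24 and Eif4h at 0.24. Of 13 elongation factors and partners 3 fell and 1 rose, and of 10 genes of the RNA polymerase I machinery 2 fell and 1 rose. In the list of 13 genes of mTORC1 and of motif control, 3 rose and none fell. Larp1 was 1 of the 3, at 0.23 ± 0.05 (SE, adjusted p = 0.000207, limma). In the lists of elongation factors, RNA polymerase I machinery and mTORC1 the share called was near that of all genes.

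Markers of other cells were called in the same comparison, in which 27.6% of all genes were called. Of 6 neutrophil markers 5 were higher at 52 weeks (median 0.72), and the group means of their median level were 5.97 to 6.85 at 26 weeks and 6.34 to 7.69 at 52 weeks in styrene. Of 5 erythroid markers 4 were lower (median -0.57), with levels of 10.23 to 10.44 and then 9.36 to 10.02. Of 6 adipocyte markers 3 were lower (median -0.51), with levels of 5.51 to 6.15 and then 4.38 to 5.94. Of the 8 B cell markers none was called (median -0.07). The part of these cells in the fall of the ribosomal protein genes was not tested.

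From 52 to 78 weeks in air, 13 genes fell and 3 rose, 25% of the 64 against 41.1% of all genes (17% higher and 24.1% lower). Rpl4 rose by 0.21 ± 0.06 (SE, adjusted p = 0.00151, limma). It read 11.93, 12.23, 12.04, 12.05 and 12.06 at 52 weeks and 12.39 and 12.32 at 78 weeks in WT, and 12.00 to 12.12 and then 12.13 to 12.38 in TG. Neither strain's groups overlapped, nor did those of CD-1, while in KO 1 of 4 mice of 78 weeks (12.01) lay within the range of 52 weeks. Rpl26 (0.08) and Rplp2 (0.08) also rose, but with arrays centred on their medians neither was called.

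Rpl14 fell by 0.31 ± 0.12 (SE, adjusted p = 0.0354) and Rpl36a, a large-subunit protein near the exit site, by 0.15 ± 0.04 (SE, adjusted p = 0.000453). In TG mice Rpl36a read 12.18, 12.11, 12.18, 12.21 and 12.12, then 11.98, 12.10, 11.53, 11.99 and 11.78, with no overlap. Rpl9 (-0.11), Rpl27 (-0.11) and Rps12 (-0.09) fell too. With the arrays centred, 35 genes fell and 1 rose. The count was 8 and 10 without the first or the second of the 2 WT air arrays of 78 weeks. B cell markers were higher at 78 weeks for 7 of 8 (median 0.94, with group means of their median level of 5.49 to 5.88 and then 6.23 to 6.82), and their part in these differences was not tested. In styrene, none of the 64 genes was called between 52 and 78 weeks (5.85% of all genes, limma). At an unadjusted p under 0.05 there were 4, against 3217 of all 15695. Without the plate term 14 of the 64 were called, and 10 with the arrays centred.

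At 104 weeks, styrene arrays differed from air arrays in many genes, with plate and dose moving together. Of the 64 genes, 16 were higher and 3 lower in WT (29.7%, against 48% of all genes, 29.6% higher and 18.3% lower). In KO 3 were higher and 4 lower (10.9% against 39.4%, 23.9% higher and 15.4% lower). In CD-1 6 were higher and 11 lower (26.6% against 63.6%, 42.8% higher and 20.7% lower). In TG none was called (0 of all genes, limma). At an unadjusted p under 0.05 none of the 64 passed in TG, against 980 of all 15695 genes. With a term for plate 4, resting on the open KO or TG arrays, the counts in WT, KO and CD-1 were 0, except 1 in CD-1 with the open TG arrays on plate 3.

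Rpl4, Rpl23 and Rps24 were lower in WT, KO and CD-1 alike, and Rpl7 was lower in KO and CD-1. Rpl4 read 12.32, 12.32, 12.14 and 12.29 in WT air and 11.70, 12.02, 11.93, 12.03 and 11.93 in WT styrene, with no overlap (-0.35 ± 0.11 SE, adjusted p = 0.00445, limma). In CD-1 the lowest, median and highest Rpl4 values were 12.21, 12.28 and 12.49 in air and 11.67, 11.88 and 12.16 in styrene, again with no overlap (-0.39 ± 0.08 SE, adjusted p = 8.17e-06). In TG, where the difference of Rpl4 was 0.00, air mice read 12.19 to 12.31 and styrene mice 12.18 to 12.43.

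Rpl23 in CD-1 read 12.55, 12.59 and 12.84 (lowest, median and highest) in air and 12.22, 12.36 and 12.49 in styrene, a difference of -0.27 ± 0.05 (SE, adjusted p = 4.18e-06). The 2 groups did not overlap. In WT the difference was -0.17 (adjusted p = 0.033), and with arrays centred on their medians it was no longer called (adjusted p = 0.0855). Rps24, a small-subunit protein that takes part in ribosomal RNA processing, differed by -0.22 in WT, -0.21 in KO and -0.22 in CD-1 mice (adjusted p = 0.00639, 0.00683 and 0.00016, limma). In KO its values were 12.33 to 12.60 in air and 12.38, 12.30, 12.16, 12.37 and 12.31 in styrene. These overlapped, because 1 air mouse read 12.33.

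In KO, 1 styrene mouse, the fifth, lay with the air mice. Its plate is open, and so is that of 1 of the other 4. The fifth mouse read 12.29 for Rpl4, 12.35 for Rpl7 and 12.62 for Rpl23. The other 4 styrene mice read 11.78 to 12.12 for Rpl4, 11.60 to 11.90 for Rpl7 and 12.11 to 12.43 for Rpl23. Without the fifth mouse 12 of the 64 genes were called in KO, and without the first or the third styrene mouse 4 or 2.

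Higher genes were led in WT by Rpl36 (0.21), Rpl41 (0.20), Rps15 (0.20), Rpl8 (0.20) and Rpsa (0.20). Rpl8 was the gene called higher in all 3 strains, with differences of 0.20 ± 0.06, 0.15 ± 0.06 and 0.11 ± 0.05 (SE) in WT, KO and CD-1. In WT it read 12.10 to 12.22 in air and 12.28 to 12.42 in styrene, with no overlap, and in CD-1 11.91 to 12.56 and 12.18 to 12.40, with overlap. Its KO call was lost in 3 of 5 fits that left out 1 array. In KO, Rpl19 (0.15) and Rplp2 (0.13) were also called higher. The CD-1 call of Rpl8, and those of Rplp0, Rplp1, Rpl15, Rpl19 and Rps14, were lost when arrays were centred on their medians, after which 0 genes were higher and 13 lower in CD-1. Without the mice that carry a tumour note, 8 were higher and 3 lower there. The mitochondrial ribosomal proteins were higher for 54 of 73 in WT, 36 in KO and 47 in CD-1, against 29.6%, 23.9% and 42.8% of all genes.

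Markers of cell types were also called in this comparison, in which 63.6% of all genes were called in CD-1, 48% in WT and 39.4% in KO. In CD-1, 8 of 9 proliferation markers were lower (median -0.87) and 5 of 5 erythroid markers higher (0.57). Of 14 ciliated cell markers 9 were higher and 2 lower (0.50), and of 12 club cell markers 6 were higher and 1 lower (0.28). Of 11 alveolar type 2 markers 7 were higher and 2 lower (0.23), and 2 of 8 B cell markers were lower (-0.37). In WT 4 of 11 alveolar type 2 markers were higher and 1 lower (0.16). Of 12 club cell markers in WT 3 were lower and none higher, and of 7 alveolar type 1 markers 3 were lower and 1 higher. In KO 4 of 9 endothelial markers were higher (0.25). The lists of B and club cells in CD-1, and of alveolar type 2 and club cells in WT, were called at no more than the share of all genes. No proliferation, erythroid or B cell marker was called in WT or KO. Their part in the differences of the ribosomal protein genes was not tested.

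**Figure D4:**
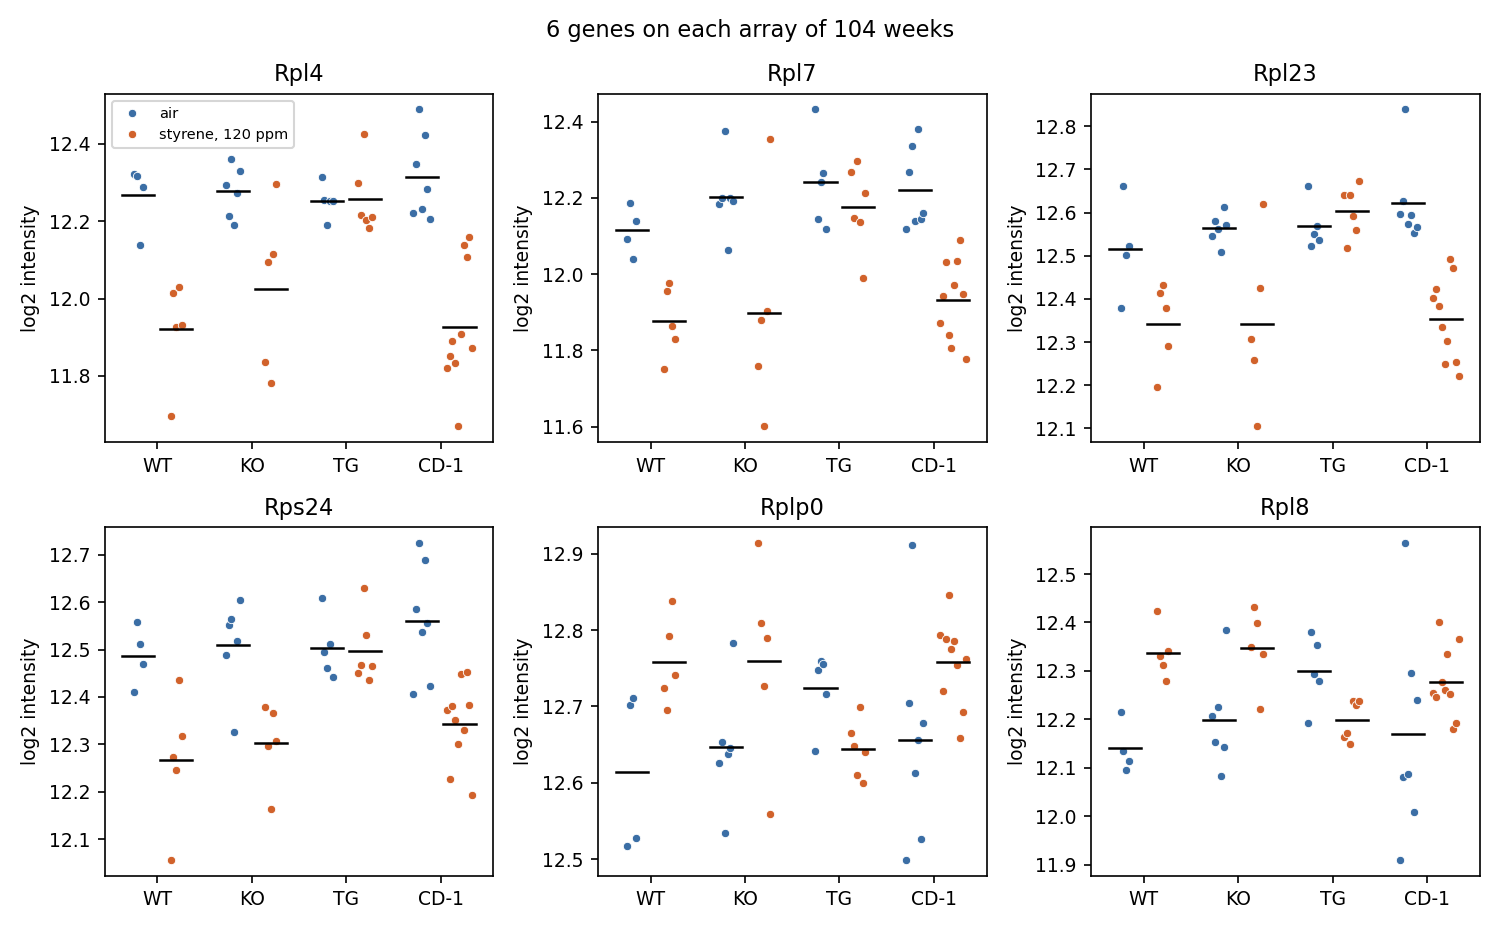
Log2 intensity of 6 genes on each array of 104 weeks (points), by strain and dose, with group means as black bars; air lay on plate 3 and styrene mostly on plate 4. Group means of Rpl4, Rpl7, Rpl23 and Rps24 are lower in styrene and those of Rplp0 and Rpl8 higher in WT, KO and CD-1, though not every one passed the test, and in TG the doses overlap for all 6.

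From 78 to 104 weeks, which is also a change of plate, 7 genes rose and 12 fell in air (29.7% of the 64 and 29.7% of all genes, of which 12.8% were higher and 16.9% lower). In styrene 5 rose and 5 fell (15.6% against 37.6%, 18.4% higher and 19.1% lower). Rpsa, a small-subunit protein once described as a laminin receptor, rose by 0.17 ± 0.03 in air and 0.24 ± 0.05 in styrene (SE, adjusted p = 1.95e-06 and 4.91e-05, limma). In CD-1 air it read 12.33, 12.46, 12.47, 12.48 and 12.27 at 78 weeks and 12.54 to 12.88 at 104 weeks, with no overlap. Rpl7a (0.12 in air and 0.13 in styrene), Rpl6 (0.14 in styrene) and Rps4x (0.12 in air) also rose. Rps15a fell most at both doses (-0.24 and -0.28), at a level near background, followed in air by Rpl12 (-0.18) and Rpl21 (-0.16) and in styrene by Rpl21 (-0.20) and Rpl39 (-0.17). The direction of the whole set depended on scaling: centring moved the median of all genes by 0.15 in the styrene comparison and gave 41 genes higher and none lower, and in air 26 higher and 1 lower. Without the first WT styrene array of 78 weeks, 3 genes were called in styrene.

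In air, 1 of the 64 genes passed the test in the comparisons of strains. KO against WT and TG against KO called none of the 64 genes by limma (0.319% and 0.344% of all genes). At an unadjusted p under 0.05 they gave 1 and 3 genes, against 839 and 873 of all 15695. CD-1 against WT called 1, Rps19, 1.56% of the 64 against 17.4% of all genes (6.89% higher and 10.5% lower). Rps19 is a small-subunit protein mutated in Diamond-Blackfan anaemia. At 52 weeks it read 12.41, 12.91, 12.84, 12.76 and 12.86 in WT and 12.53, 12.46, 12.47 and 12.57 in CD-1. At 78 weeks it read 12.86 and 12.94 in WT and 12.67, 12.76, 12.65, 12.68 and 12.42 in CD-1, and at 104 weeks 12.73 to 12.84 and 12.60 to 12.81. The strains did not overlap at 78 weeks, overlapped by 1 WT array at 52 weeks, and overlapped widely at 104 weeks. Over the 3 weeks the difference was -0.19 ± 0.04 (SE, adjusted p = 0.000893, limma).

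Within groups, where strain, week and dose are the same, the genes moved together only loosely. Over the 150 arrays, the correlation of 2 genes' deviations from their group means had a median of 0.23 over 2016 pairs, and 370 pairs were below 0. The closest pair was Rpl7 and Rps4x (r = 0.82), followed by Rpl4 and Rpl7 (r = 0.80) and by Rps4x and Rps6 (r = 0.79). The most opposed pair was Rpl4 and Rps14 (r = -0.48). The main axis of all genes within groups, which held 20.4% of their variance, split the set. Deviations of Rpl7 (r = 0.66), Rpl23 (0.66), Rpl4 (0.65) and Rps24 (0.47) followed it, and those of Rps15 (-0.61), Rps10 (-0.59), Rpl36 (-0.58) and Rpsa (-0.56) ran opposite to it. Rpl7, Rpl23, Rpl4 and Rps24 were also the genes called lower in styrene at 104 weeks in more than 1 strain, and lowest on the second TG styrene array of 78 weeks, which sat at -42.2 on this axis. Of the 7 genes called lower in CD-1 alone, Rps4x followed the axis (r = 0.35), while Rpl3 (-0.16) and Rpl34 (-0.20) did not. What moves arrays along this axis was not tested. These values share arrays and probe chemistry and are a description.

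The arrays with the highest mean over the 64 genes, relative to their groups, were from 2 mice in air at 104 weeks that carry a tumour note. A CD-1 mouse stood 0.17 above its group, with 61 of 64 genes above their group mean, and a KO mouse 0.12, with 60 of 64. The next array stood at 0.08. The B cell markers had medians of 10.40 in that CD-1 mouse and 9.27 in that KO mouse, against 5.21 to 6.94 in the other 8 tumour-noted mice, which stood between -0.07 and 0.07. Proliferation markers had a median of 8.74 in the CD-1 mouse and 5.02 in the KO mouse, against 3.64 to 7.06 in the other 8. The mouse at 7.06, also CD-1 in air, stood 0.02 above its group.

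Across the 150 arrays, the deviation of the 64 genes followed that of the B cell marker median (r = 0.54, Spearman's rho 0.33), and without these 2 arrays r was 0.36 and rho 0.31. With the mean of the B cell markers in place of their median, r was 0.47. On that scale the mean of the mitochondrial ribosomal proteins gave r = 0.61 and the ribosome biogenesis factors 0.54. The elongation factors gave 0.53, the paralogs 0.52 and the RNA polymerase I machinery 0.51. Among other cell markers, those of T cells gave 0.41, proliferation 0.38, plasma cells 0.18 and ciliated cells -0.35. The remaining cell marker lists lay between -0.30 (club cells) and 0.07 (neutrophils). All of these are within-group deviations of arrays that share normalization. The tumour note itself, tested in CD-1 at 104 weeks with dose as a term, called none of the 64 genes (0 of all genes, limma). At an unadjusted p under 0.05 it gave none of the 64, against 1451 of all 15695 genes. Of the 64 differences 49 were positive and 15 negative, with a median of 0.03. The median was 0.12 within air and -0.02 within styrene. Rpl11, which binds Mdm2, gave 0.13 (adjusted p = 0.556).

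**Figure D5:**
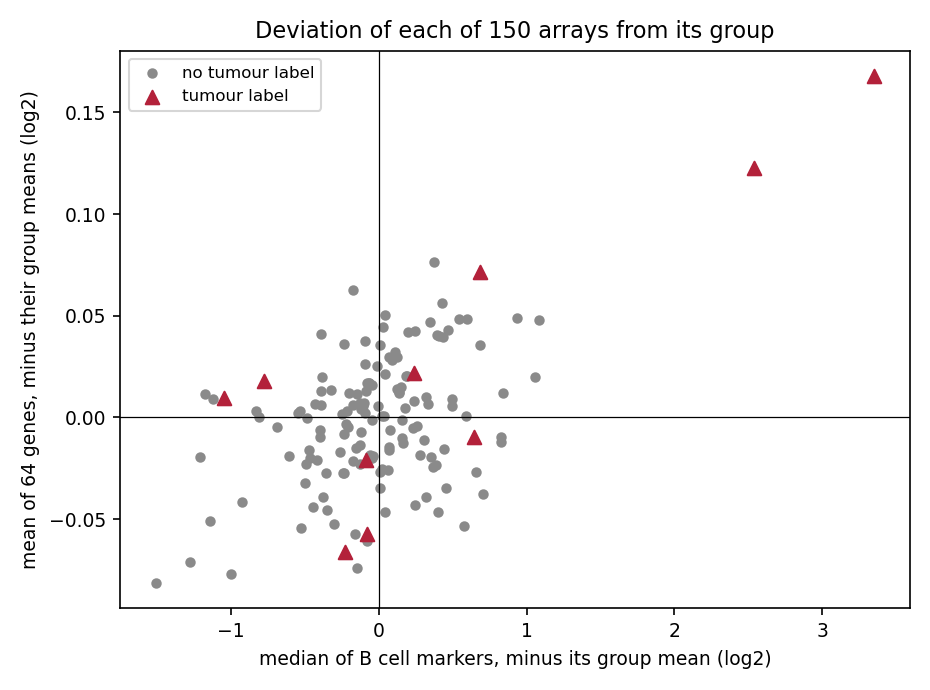
Mean deviation of the 64 genes from their group means (vertical, log2) against that of the B cell marker median (horizontal, log2), 1 point per array, with tumour-noted mice as triangles. The 2 arrays at the upper right stand 0.17 and 0.12 above their groups, and the other 8 triangles lie between -0.07 and 0.07.

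Other probe sets of the same genes gave a check on the choice of probe set. Of 59 others, 57 passed the filter, and 32 of the 64 genes had more than 1. For 52 minus 26 weeks, 47 of 57 had the same sign as the chosen probe set in styrene and 44 of 57 in air, with medians of -0.08 and -0.06. For styrene against air at 104 weeks the shares were 45 of 57 in WT, 36 in KO, 36 in CD-1 and 33 in TG, and 44 in TG at 78 weeks. In air the shares were lower for the later weeks, 37 of 57 for 78 minus 52 weeks and 33 of 57 for 104 minus 78 weeks. Rpl23's second bright probe set gave -0.30, -0.29 and -0.27 in WT, KO and CD-1 at 104 weeks. For Rps24 a dimmer probe set, with a mean of 6.86, gave 0.34 for 52 minus 26 weeks in styrene where the chosen one gave -0.04, and at 104 weeks it gave -0.97, -0.57 and -0.91 in WT, KO and CD-1, the direction of the chosen one. For Rps20, 2 probe sets near background gave 0.13 and 0.10 where the chosen one gave -0.11. Of the chosen probe sets, 15 carry the suffix x and 5 the suffix s, which mark probes shared with other transcripts, and ribosomal protein genes have many processed pseudogenes, so some signal may come from near-identical copies.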

How the data were processed

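RNA of each lung was read on 1 Affymetrix array of the type HT MG-430 PM. The values are log2 intensities deposited by the authors, 1 per probe set and array (45037 by 150), made by RMA (robust multi-array average). The processing notes of the submitters list RMA and Partek, with no versions. The sources do not say if RMA ran over all plates at once. Array plates were inferred from repeated wells in the labels. The labels' exposure protocol names 1 or 4 weeks, and the weeks used here are those of each sample. The series names 154 mice, of which 150 were analysed here.

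Members were taken by symbol, 1 single-gene probe set a gene. Genes above an array's 30th percentile in at least 3 arrays were tested with limma 3.58.1 in R 4.3.3 (31 group means, a plate 2 term, Benjamini-Hochberg adjustment over 15695 genes, threshold 0.05). P-values measure the spread between separate animals. On simulated data with 50 genes changed by each size, this fit recovered 0% of genes changed by 0.1 (log2), 46% of those changed by 0.25 and 90% of those changed by 0.5 in the styrene comparison of 52 with 26 weeks. The changed genes were drawn from all genes tested (median SD 0.213), and no other gene was changed. The 64 genes are steadier (median SD 0.0794), so these rates do not carry over to them. The members and lists were chosen with earlier results of these data known. Genes named in the text were drawn from, of those called, the 5 with the highest and the 5 with the lowest difference per comparison, 10 and 10 in the styrene comparison of 52 with 26 weeks, the 3 at each end where none was called, often used references, genes with disagreeing probe sets and up to 4 genes a list; Rpl27, Rpl11, Rpl14 in CD-1 and the genes on the within-group axis were picked after their values were seen. Alternatives covered the filter, probe set choice, separate fits, eBayes settings, plate terms, the replicate block, centring, the main axis as a covariate and leaving out arrays. Same-numbered arrays of different groups did not deviate together (median r 0.01 over 64 pairs, 22 over 0.1), so numbers were not taken as pairs. Control probe sets were not analysed here, so a planned check of RNA quality was not run. Arrays give no read depth, so their number limits the precision. Promoters came from RefSeq (GRCm38.p6). Figures were drawn with matplotlib 3.10.9.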

Additional observations from a re-analysis of the deposited data

Results flagged for a closer look

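Among 243 tests of groups of 4 to 10 arrays (8 genes and the median of the 64), 20 had 1 array whose gap to the next, divided by the group's range, passed Dixon's critical value, and chance flags about 1 in 20. The values are log2 intensities. Rps6 read 12.58 in the first KO air mouse of 78 weeks, 12.58 in the fifth TG styrene mouse of 52 weeks and 12.78 in the first WT styrene mouse of 52 weeks, all below their groups. The same KO mouse read 12.38 for Rpl23 and 12.36 for Rps24, also the lowest of its group. The same TG mouse read 12.18 for Rpl23, its group's lowest, and 12.85 for Rplp0, its group's highest.

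Rplp0 was low in the fourth TG styrene mouse of 26 weeks (12.71) and in the second WT styrene mouse of 52 weeks (12.64), and Rplp2 in the first KO styrene mouse of 26 weeks (12.30). Rpl13a was high in the sixth KO air mouse of 104 weeks (12.79), which carries a tumour note, and in the second KO styrene mouse of 78 weeks (12.71), and low in the fourth KO styrene mouse of 26 weeks (12.61). Rpl4 was low in the first KO styrene mouse of 52 weeks (11.76) and Rpl7 high in the fourth TG air mouse of 52 weeks (12.17). Rpl23 was high in the third CD-1 air mouse of 104 weeks (12.84), which carries a tumour note, high in the second CD-1 air mouse of 26 weeks (12.62) and low in the fifth KO air mouse of 26 weeks (12.45). Rps24 was low in the fifth KO styrene mouse of 78 weeks (12.30). The median of the 64 genes was low in the fourth CD-1 air mouse of 26 weeks (12.44). What set these arrays apart was not tested.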

How the results depend on the processing

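Of 967 recomputed counts of the 64 genes called, 905 stayed within 1.5 times the reported count. Many of these were comparisons with a reported count of 0 that stayed at 0, so this share says little about the other counts. The main axis was taken from deviations within groups, so as a covariate it leaves the differences unchanged and alters only their standard errors. The styrene count of 52 minus 26 weeks (35) ran from 29 to 35 when single arrays were left out. Only arrays of groups of 2 to 5 were left out in turn, so these ranges hold no fit without a KO air, TG styrene or CD-1 mouse of 104 weeks, and CD-1 at 104 weeks has no such range. The ranges were 2 to 7 for the same weeks in air (5), 8 to 17 for 78 minus 52 weeks in air (16), 14 to 19 for 104 minus 78 weeks in air (19) and 3 to 15 in styrene (10). At 104 weeks they were 14 to 24 in WT (19) and 2 to 12 in KO (7), and for TG at 78 weeks 0 to 14 (1) and for the TG mean up to 78 weeks 0 to 9 (0). The TG count at 78 weeks was 0 with no filter, the stricter filter, the mean of probe sets, no x probe sets, separate fits or the replicate block, 25 without the plate term and 12 with the main axis as a covariate. The TG mean count was 12 and 6 under the last 2. The replicate block moved no other count by over 1.5 times. The CD-1 count at 104 weeks (17) was 26 with the mean of probe sets, 5 in separate fits, 0 and 1 with a plate 4 term and 11 without tumour-noted mice, and WT and KO were 0 with a plate 4 term. CD-1 against WT in air (1) was 5 with the mean of probe sets and 3 without x probe sets, and TG against KO in air (0) was 1 under each. The styrene count of 78 minus 52 weeks (0) was 1, 1, 14 and 10 with the mean of probe sets, without x probe sets, without the plate term and with centring. Centring gave 1 in WT at 52 weeks (0), 15 in air for 52 minus 26 weeks (8 with the axis covariate), 36 in air for 78 minus 52 weeks and 41 in styrene for 104 minus 78 weeks. Some genes changed sign. With the mean of probe sets, Rpl15 was -0.18 in CD-1 and -0.29 in WT at 104 weeks and Rpl31 was 0.041 in air for 104 minus 78 weeks. Without x probe sets, Rpl31 was 0.23 there, Rpl21 was 0.050 in styrene for 104 minus 78 weeks and Rps20 was 0.13 in styrene for 52 minus 26 weeks. With a plate 4 term and the open KO arrays on plate 3, Rpl23 was 0.032 in CD-1 and 0.13 in WT, Rpl7 0.091, Rpl8 -0.0087 and Rplp0 -0.040 in CD-1. With centring, Rps24 was 0.0063 in styrene for 104 minus 78 weeks. The cause was not tested. Bright signal may limit how small a difference shows.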
